A study of Mus musculus with 38 samples.

Results

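The 10 genes described here, across genotype and day of colitis, serve water and ion transport in the epithelium of the large intestine, most of them in its absorptive cells. They are Slc26a3, Slc9a3, Aqp8, Aqp4, Scnn1a, Scnn1b, Scnn1g, Car1, Car4 and Best2, chosen by gene symbol, and the 10 symbols matched 10 of the 46078 gene rows in the count files. RNA was sequenced from 38 libraries labelled as intestinal epithelial cells of mouse strain C57BL/6, while the series text names colon tissue. In KO mice (Hk2∆IEC in the labels) Hk2, the gene for hexokinase 2, is floxed and a CRE driven by the Villin promoter removes it; that promoter is active in epithelium along the small and large intestine. WT denotes littermates with floxed Hk2 alleles and no stated CRE, so both genotypes carry the floxed allele. Male mice of 10 to 12 weeks, co-housed across genotypes, drank 1.5% dextran sodium sulfate (DSS), which causes colitis. The groups were untreated WT on day 0 (n = 4), untreated KO on day 0 (n = 5), WT after 3 days of DSS (n = 7), KO after 3 days (n = 8), WT after 7 days (n = 7) and KO after 7 days (n = 7). The labels give 2 age ranges for untreated animals, a younger one of 9 to 11 weeks and an older one of 86 to 92 weeks, and assign neither, nor a sex, to the day 0 mice. The labels number each library but do not state in words that each number is 1 animal, so p-values below measure the spread between these libraries.

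Colonocytes take up sodium chloride through paired exchangers in the apical membrane, with sodium entering in exchange for protons and chloride in exchange for bicarbonate. Carbonic anhydrases supply the protons and bicarbonate, the epithelial sodium channel takes up further sodium in the distal colon under the control of aldosterone, and water follows through the epithelium, in part through aquaporins. Loss of this absorption is a known feature of colitis and of the diarrhoea that goes with it.

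Promoter sequence is given for 3 of the 6 genes with an entry in the reference table: the chloride exchanger, the sodium exchanger that works beside it, and a water channel, each of which changed between day 3 and day 7 in at least 1 genotype. Each run below is the 250 bases before the start of the gene in RefSeq on GRCm38.p6, read 5′ to 3′ on the plus strand. The windows are chr12:31437969-31438218 for Slc26a3, chr13:74121163-74121412 for Slc9a3 and chr7:123462044-123462293 for Aqp8. Capitals mark a TATA box.
Slc26a3: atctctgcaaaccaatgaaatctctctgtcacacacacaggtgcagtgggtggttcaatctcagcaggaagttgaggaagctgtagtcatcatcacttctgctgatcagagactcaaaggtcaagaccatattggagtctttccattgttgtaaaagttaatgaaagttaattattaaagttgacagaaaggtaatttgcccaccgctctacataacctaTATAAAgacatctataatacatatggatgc
Slc9a3: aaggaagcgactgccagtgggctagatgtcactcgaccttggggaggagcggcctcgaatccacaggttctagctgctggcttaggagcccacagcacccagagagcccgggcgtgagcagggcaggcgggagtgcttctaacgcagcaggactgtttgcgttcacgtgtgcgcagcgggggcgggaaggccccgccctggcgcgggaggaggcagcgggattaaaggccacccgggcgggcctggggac
Aqp8: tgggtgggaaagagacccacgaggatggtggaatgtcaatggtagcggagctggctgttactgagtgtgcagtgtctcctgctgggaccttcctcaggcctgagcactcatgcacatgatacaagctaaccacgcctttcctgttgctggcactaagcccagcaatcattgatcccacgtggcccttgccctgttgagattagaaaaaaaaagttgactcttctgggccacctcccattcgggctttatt

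These windows differed in base composition, with 38.8% G and C in Slc26a3, 67.6% in Slc9a3 and 52.4% in Aqp8, where the median of all 32851 promoters in the table was 52.4%. Both strands were searched for 5 motifs by exact letters. The TATA box, TATAAA, was found in Slc26a3, beginning 30 bases before the start, and in 12.4% of all promoters in the table. A CDX site, TTTATG, was found in Scnn1g, beginning 7 bases before its start, and in 10.8% of all promoters. The GATA site AGATAA was in none of the 6 windows of these genes and in 9.99% of all promoters. A steroid receptor element of the letters AGAACA, likewise in none of them, was in 16.1% of all promoters. The HNF4 site CAAAGTCCA, the rarest, was in none of them and in 0.384% of all promoters. Slc9a3, Aqp8, Scnn1b and Car4 thus held none of the 5. In the count files the gene Slc26a3 begins upstream of the RefSeq start used here. A match or its absence describes letters only.

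Total counts were 10.5 to 60.6 M (mega) per library, with a median of 43.15 M. All 9 day 0 libraries belong to another library series than the 29 DSS libraries, by the prefix of their file names, and mitochondrial ribosomal RNA took 6.25 to 45.6% of their counts against 0.352 to 3.95% in the others. Comparisons with day 0 thus hold day and library series together, and the 2 cannot be told apart there, whereas day 7 against day 3 and KO against WT lie within one series. Age and sex of the day 0 mice are not assigned in the labels. They may therefore also differ between day 0 and the DSS days, and between KO and WT on day 0. Hk2, the targeted gene, had 254 to 449 CPM (counts per M counts of the library, with TMM factors) in WT and 33.1 to 118 CPM in KO on day 0, and 228 to 611 against 56.1 to 268 CPM on day 7, where d7_KO_420 at 268 CPM lay inside the WT range. On day 3 it had 97.0 to 220.5 CPM in WT and 68.4 to 128 CPM in 7 of the KO libraries, while the library labelled d3_KO_345 had 435 CPM and goes against its label. Apart from Hk2 itself, results that use d3_KO_345 are given with and without it where the outcome of the test changed. Epithelial genes (Epcam, Cdh1, Krt8, Krt18, Krt19, Vil1 and Cldn7) summed to 8999 to 17786 CPM over all libraries.

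The 10 genes together took 0.594% ± 0.0699 (SD, n = 4) of all counts in WT day 0 libraries and 0.967% ± 0.244 (SD, n = 7) in WT day 7 libraries. Car1 alone took 0.1995 to 0.305% of counts in WT on day 0 and 0.366 to 1.07% on day 7. Per kilobase of exon, the order of levels in WT on day 0 began with Car1 at 1771 ± 337.5 CPM per kb (SD, n = 4). Aqp8 (286 ± 78.8), Car4 (262.5 ± 72.2) and Aqp4 (225 ± 51.4 CPM per kb) came next, and their ranges over libraries overlapped. Slc26a3 followed at 150.5 ± 23.6 CPM per kb, overlapping Aqp4 at the edge, and Slc9a3 at 71.7 ± 19.3 CPM per kb lay below it in every library. Scnn1a at 23.8, Best2 at 11.6, Scnn1b at 3.53 and Scnn1g at 0.446 CPM per kb closed the order, without overlap between neighbours. On day 7 Aqp8 had moved from the second to a lower place, at 78.7 ± 55.1 CPM per kb in WT and 44.5 ± 21.6 CPM per kb in KO (both SD, n = 7), beside Slc9a3 and Slc26a3.

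**Figure D1:**
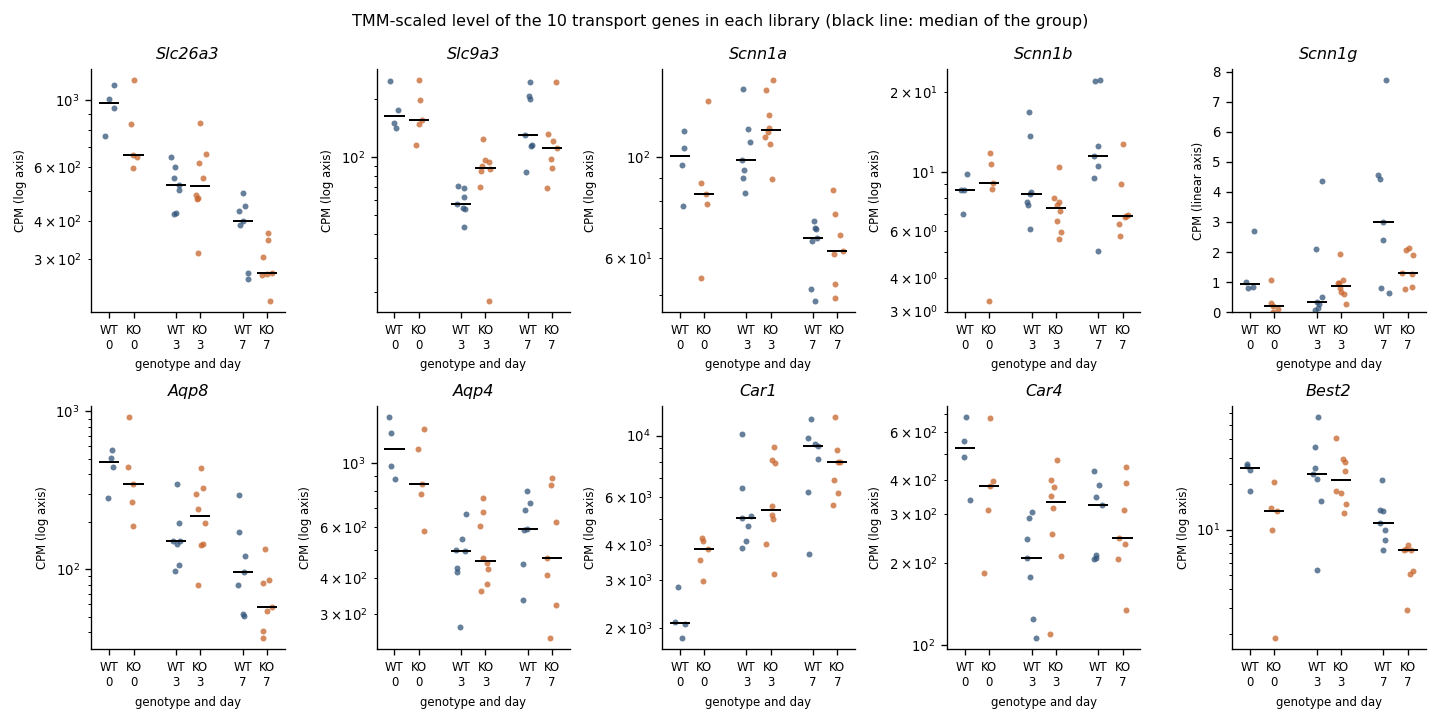
TMM-scaled CPM of each of the 10 genes in each library (points), by genotype and day, with the group median as a black line; axes are logarithmic except for Scnn1g, whose axis is linear because 1 library had no counts. Slc26a3 and Aqp8 have their highest group medians on day 0 and their lowest on day 7, Car1 has the reverse order, and Slc9a3 is lowest on day 3 in both genotypes.

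The course of colitis was read from day 7 against day 3, which lies within one library series. In WT, 4 of the 10 genes passed the test (edgeR quasi-likelihood, Benjamini-Hochberg adjusted p under 0.05 over all genes), 1 higher and 3 lower, against 19.3% of all 15541 genes tested (10.6% higher and 8.7% lower). In KO, 4 of the 10 were lower and none was higher, against 19.3% of 15568 genes (10.5% higher and 8.83% lower). Slc26a3, Scnn1a and Best2 fell in both genotypes, Aqp8 fell in KO, and Slc9a3 rose in WT. Without d3_KO_345 the KO counts were also 4 lower and none higher. The median log2 fold change of the 10 genes was 0.36 in WT and -0.08 in KO, where the median of all genes was 0.01 in WT and -0.01 in KO. In bulk RNA, fewer cells of a type and less RNA per cell cannot be told apart, and this holds for each value below.

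Against day 0, 6 of the 10 genes changed on day 3 in WT, 1 higher and 5 lower, where 46% of 17152 genes passed (20.4% higher and 25.6% lower), and 4 changed in KO, 2 in each direction, where 46.3% of 16010 genes passed (22.6% higher and 23.7% lower). On day 7 the counts were 7 in WT (1 higher, 6 lower; 56.9% of 17428 genes, 27.8% higher and 29.2% lower) and 6 in KO (2 higher, 4 lower; 54.6% of 16367 genes, 27.3% in each direction). In WT the lower calls made up a larger share of the 10 than of all genes and the higher calls a smaller one; with 10 genes this is given as counts. The comparisons share the day 0 libraries, so each gene's own values follow. Fits against day 0 without 1 library left out only day 0 libraries, and d3_KO_345 in KO on day 3. The median of the 10 genes was -0.55 in WT and -0.28 in KO on day 3, and -0.73 in WT and -0.50 in KO on day 7, against medians of all genes of 0.0060 to 0.0252. Library sizes from epithelial genes lowered the medians of all genes to -0.39 to -0.17, and the share of calls that were higher went from 44.3 to 22.1% (WT) and 48.8 to 9.67% (KO) on day 3, and from 48.8 to 32.6% and 50.0 to 22.4% on day 7.

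**Figure D2:**
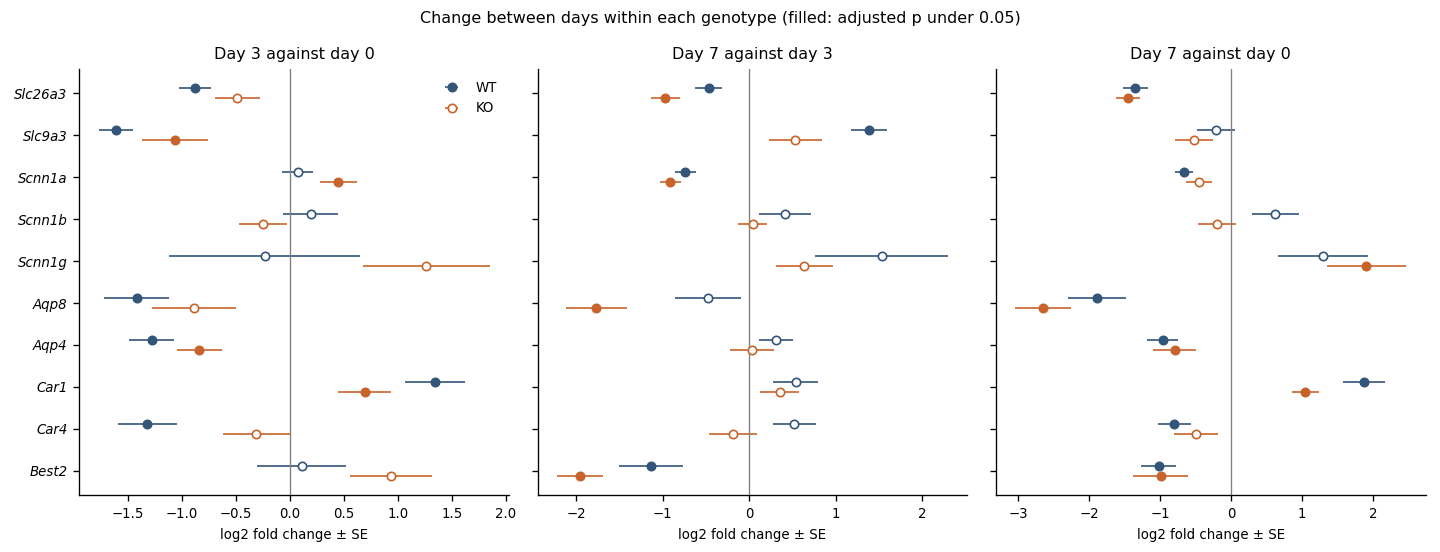
Log2 fold change with its SE for each of the 10 genes between days, in WT (blue) and KO (orange); filled points passed an edgeR adjusted p under 0.05. From day 3 to day 7, Slc26a3, Scnn1a and Best2 lie below 0 in both genotypes with filled points, and Slc9a3 in WT lies at 1.38.

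Slc26a3 (ENSMUSG00000001225; chromosome 12, 31390871 to 31473917, plus strand) encodes the apical chloride and bicarbonate exchanger known as DRA, whose loss in people causes congenital chloride diarrhoea. In WT it had 1007, 1121, 761 and 945 CPM on day 0, 420.8 to 648 CPM (median 525) on day 3 and 257 to 495.5 CPM (median 401) on day 7. In KO the day 0 libraries had 834, 661, 649, 596 and 1166 CPM, day 3 libraries 313 to 839 CPM (median 522) and day 7 libraries 218 to 365 CPM (median 269). Every DSS library of WT lay below every WT day 0 library, and all 7 KO day 7 libraries lay below the KO day 0 libraries.

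From day 3 to day 7 Slc26a3 fell by 0.97 on the log2 scale in KO (SE 0.17, edgeR adjusted p 0.000701), while the WT libraries fell by 0.47 (SE 0.16, edgeR adjusted p 0.0453). All 7 day 7 libraries lay below the day 3 median in each genotype, and the ranges overlapped. The WT call rested on a narrow margin. It was lost without any one of d3_WT_346, d3_WT_348, d3_WT_486, d3_WT_487, d7_WT_356, d7_WT_361, d7_WT_370, d7_WT_393 or d7_WT_419, with values of -0.54 to -0.39 and edgeR adjusted p of 0.0288 to 0.0863 in 14 leave-one-out fits. It was also lost without a filter and with all 38 libraries in one fit. The KO value stayed between -1.06 and -0.87 over 15 such fits. Against day 0, Slc26a3 was lower by 0.88 (SE 0.15, edgeR adjusted p 0.000298) on day 3 and by 1.35 (SE 0.18, edgeR adjusted p 3.92e-05) on day 7 in WT. In KO the day 3 value was -0.49 (SE 0.21, edgeR adjusted p 0.0667) and the day 7 value -1.45 (SE 0.17, edgeR adjusted p 8.73e-06). The KO day 3 value was called in 3 of 8 other settings (DESeq2, epithelial library sizes and all 38 libraries in one fit). It ran from -0.90 to -0.42 over the 8.

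Slc9a3 (ENSMUSG00000036123; chromosome 13, 74121515 to 74166064, plus strand) encodes NHE3, the apical sodium and proton exchanger that works beside DRA. WT libraries had 150.3, 247, 141 and 175 CPM on day 0, 43.6 to 71.2 CPM (median 57.5) on day 3 and 84.2 to 246 CPM (median 130.0) on day 7. The 7 WT day 3 libraries lay below all WT day 0 and all WT day 7 libraries. Slc9a3 fell by 1.61 from day 0 to day 3 (SE 0.16, edgeR adjusted p 1.94e-06) and was higher by 1.38 on day 7 than on day 3 (SE 0.21, edgeR adjusted p 0.000329), both of which use the same WT day 3 libraries.

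KO libraries had 197, 116, 155, 148 and 252 CPM of Slc9a3 on day 0, 17.9 to 124 CPM (median 88.4) on day 3 and 69.4 to 245.5 CPM (median 111) on day 7. The day 3 and day 7 ranges overlapped in KO, and 5 of 7 day 7 libraries lay above the day 3 median. The fall from day 0 to day 3 was 1.06 (SE 0.30, edgeR adjusted p 0.0103), and the value from day 3 to day 7 was 0.53 (SE 0.31, edgeR adjusted p 0.263). Neither genotype passed on day 7 against day 0, with -0.22 (SE 0.27, edgeR adjusted p 0.507) in WT and -0.52 (SE 0.27, edgeR adjusted p 0.118) in KO. The KO value was called with library sizes from epithelial genes (edgeR adjusted p 0.0103). Slc26a3 and Slc9a3, which take up chloride and sodium together, thus had opposite signs from day 3 to day 7 in both genotypes. In KO only Slc26a3 was called, and the WT call of Slc26a3 was lost in 9 of 14 leave-one-out fits.

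The 3 genes of the epithelial sodium channel are Scnn1a for the alpha subunit (ENSMUSG00000030340; chromosome 6, 125320659 to 125344943, plus strand), Scnn1b for beta (ENSMUSG00000030873; chromosome 7, 121865111 to 121918515, plus strand) and Scnn1g for gamma (ENSMUSG00000000216; chromosome 7, 121734479 to 121768475, plus strand). Scnn1b and Scnn1g are neighbours on chromosome 7, on the same arm as Aqp8. In the colon the alpha subunit is made at most times, and the beta and gamma subunits are known to rise with aldosterone. Per kilobase, Scnn1a exceeded Scnn1b and Scnn1b exceeded Scnn1g in the means of all 6 groups.

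Scnn1a had 96.1, 104.5, 78.2 and 114 CPM in WT on day 0, 83.3 to 141 CPM (median 98.5) on day 3 and 48.4 to 72.2 CPM (median 66.5) on day 7. In KO it had 82.9, 54.3, 78.9, 87.8 and 132 CPM on day 0, 89.7 to 147.5 CPM (median 115) on day 3 and 49.0 to 84.5 CPM (median 62.3) on day 7. In both genotypes every day 7 library lay below every day 3 library. The fall from day 3 to day 7 was 0.74 in WT (SE 0.12, edgeR adjusted p 0.000791) and 0.91 in KO (SE 0.12, edgeR adjusted p 0.000114), and it was called in every alternative run. Against day 0, Scnn1a in WT had 0.07 on day 3 (SE 0.15, edgeR adjusted p 0.702) and fell by 0.66 on day 7 (SE 0.13, edgeR adjusted p 0.000886). In KO it rose by 0.45 on day 3 (SE 0.17, edgeR adjusted p 0.0388), a call lost without any one of d0_KO_24, d0_KO_32, d0_KO_53 or d0_KO_54 (0.36 to 0.65 and edgeR adjusted p 0.00231 to 0.0931 over 6 fits) and with a mean CPM of at least 1 (0.41) or library sizes from epithelial genes (0.044), and had -0.46 on day 7 (SE 0.19, edgeR adjusted p 0.0507; -0.57 and 0.0112 without d0_KO_32, -0.26 and 0.202 without d0_KO_60). The 8 other settings gave -0.79 to -0.34, and 5 of them called it (DESeq2, a mean CPM of at least 1, epithelial library sizes, lane 1 alone and all 38 libraries in one fit).

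Scnn1b was between 3.28 and 22.2 CPM in all 38 libraries and passed no comparison between days. Its medians were 8.57, 8.32 and 11.6 CPM on days 0, 3 and 7 in WT and 9.13, 7.33 and 6.84 CPM in KO. Between days 3 and 7 it had 0.42 in WT (SE 0.30, edgeR adjusted p 0.368) and 0.04 in KO (SE 0.17, edgeR adjusted p 0.915). Without d0_KO_32, which had 3.28 CPM, the day 3 value in KO against day 0 was -0.40 (edgeR adjusted p 0.0448), where all libraries gave -0.25 (SE 0.22, edgeR adjusted p 0.388).

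Scnn1g was the least abundant of the 10, at 0 to 264 counts per library. In WT it had 0.788, 2.69, 1.01 and 0.841 CPM on day 0, 0.0548 to 4.35 CPM (median 0.353) on day 3 and 0.626 to 7.71 CPM (median 2.98) on day 7. KO libraries had 1.08, 0, 0.312, 0.0961 and 0.198 CPM on day 0, 0.270 to 1.93 CPM (median 0.881) on day 3 and 0.777 to 2.13 CPM (median 1.30) on day 7. The library at 0, d0_KO_32, had a floor of 0.172 CPM for 3 counts before TMM scaling, and mitochondrial ribosomal RNA took 45.6% of its counts. In WT on day 3, d3_WT_487 at 4.35 and d3_WT_486 at 2.10 CPM stood above the others at 0.503 CPM or less.

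In KO Scnn1g was higher on day 7 than on day 0 by 1.91 (SE 0.56, edgeR adjusted p 0.0105; 1.67 to 3.09 over 5 fits without 1 library, the highest without d0_KO_24). From day 3 to day 7 it had 1.53 in WT (SE 0.77, edgeR adjusted p 0.18), which became 2.48 with an edgeR adjusted p of 0.0298 without d3_WT_487, and 0.64 in KO (SE 0.33, edgeR adjusted p 0.204). Against WT day 0 the day 7 value was 1.30 (SE 0.64, edgeR adjusted p 0.0956), and 1.90 with an edgeR adjusted p of 0.0421 without d0_WT_41. In KO the day 3 value against day 0 was 1.26 (SE 0.59, edgeR adjusted p 0.0904), and 2.40 with an edgeR adjusted p of 0.00739 without d0_KO_24. Lane 1 alone also called it.

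Aqp8 (ENSMUSG00000030762; chromosome 7, 123462294 to 123468003, plus strand) encodes aquaporin 8, a water channel that marks absorptive colonocytes. It had 444.5, 506, 282 and 573 CPM in WT on day 0, 98.0 to 346.1 CPM (median 150.3) on day 3 and 50.2 to 297 CPM (median 96.5) on day 7. In KO it had 444, 189, 266, 345.3 and 920.3 CPM on day 0, 80.1 to 435 CPM (median 217) on day 3 and 36.5 to 135 CPM (median 57.9) on day 7. All KO day 7 libraries lay below all KO day 0 libraries and below the KO day 3 median.

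Between days 3 and 7 Aqp8 fell by 1.77 in KO (SE 0.35, edgeR adjusted p 0.00192; -2.01 to -1.59 over 15 fits without 1 library) and had -0.47 in WT (SE 0.38, edgeR adjusted p 0.435). Against day 0 it fell in WT by 1.42 on day 3 (SE 0.30, edgeR adjusted p 0.00165) and by 1.89 on day 7 (SE 0.41, edgeR adjusted p 0.0017). In KO it had -0.89 on day 3 (SE 0.39, edgeR adjusted p 0.075). That value was -1.04 (edgeR adjusted p 0.0393) without d0_KO_32 and -0.41 (edgeR adjusted p 0.384) without d0_KO_60. It was called with library sizes from epithelial genes (edgeR adjusted p 0.00413). On day 7 Aqp8 in KO fell by 2.65 (SE 0.39, edgeR adjusted p 7.36e-05). This takes the group mean from 433 ± 288 CPM (SD, n = 5) to 70.2 ± 34.0 CPM (SD, n = 7).

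Aqp4 (ENSMUSG00000024411; chromosome 18, minus strand) encodes aquaporin 4, a basolateral water channel. WT libraries had 1445, 975, 1272 and 880.3 CPM on day 0, 270 to 666.5 CPM (median 496) on day 3 and 336 to 802 CPM (median 592) on day 7, and both DSS groups lay below all WT day 0 libraries. KO libraries had 1118, 1311, 581, 846 and 782 CPM on day 0, 359.6 to 758 CPM (median 460.4) on day 3 and 248 to 892 CPM (median 468.5) on day 7, with overlap between days. Unlike the fall of Aqp8 in KO, Aqp4 had 0.03 from day 3 to day 7 in KO (SE 0.26, edgeR adjusted p 0.952) and 0.31 in WT (SE 0.20, edgeR adjusted p 0.312). Against day 0 it fell in WT by 1.28 on day 3 (SE 0.20, edgeR adjusted p 0.000183) and by 0.96 on day 7 (SE 0.22, edgeR adjusted p 0.00207). In KO it fell by 0.84 on day 3 (SE 0.21, edgeR adjusted p 0.00464) and by 0.80 on day 7 (SE 0.31, edgeR adjusted p 0.0396), the latter lost without any one of d0_KO_24, d0_KO_32 or d0_KO_54 (-0.93 to -0.63, edgeR adjusted p 0.0276 to 0.115 over 5 fits) or without a filter.

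Car1 (ENSMUSG00000027556; chromosome 3, 14766216 to 14808368, minus strand) encodes carbonic anhydrase 1, a cytosolic enzyme that makes bicarbonate and protons from carbon dioxide. In WT it had 2113, 2069, 1841 and 2816 CPM on day 0, 3921 to 10113.7 CPM (median 5043) on day 3 and 3713 to 11514 CPM (median 9188) on day 7. In KO it had 3530, 2963, 4236, 3864 and 4156 CPM on day 0, 3141 to 9087 CPM (median 5371) on day 3 and 5588 to 11666 CPM (median 7993) on day 7. Every WT library of day 3 or day 7 lay above every WT day 0 library, and every KO day 7 library above every KO day 0 library.

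Car1 was the 1 gene of the 10 that was higher against day 0 on both days in both genotypes. The rise was 1.34 on day 3 (SE 0.28, edgeR adjusted p 0.00148) and 1.88 on day 7 (SE 0.29, edgeR adjusted p 0.000137) in WT, and in KO 0.69 on day 3 (SE 0.24, edgeR adjusted p 0.0298) and 1.05 on day 7 (SE 0.19, edgeR adjusted p 0.000394). With library sizes from epithelial genes the KO value on day 3 was 0.25 and was not called. The KO call on day 3 was lost without d0_KO_24 or d0_KO_54 (0.66 to 0.74, edgeR adjusted p 0.0352 to 0.0639 over 6 fits). From day 3 to day 7 it had 0.54 in WT (SE 0.26, edgeR adjusted p 0.169) and 0.35 in KO (SE 0.22, edgeR adjusted p 0.31). Without d3_WT_381, whose 10113.7 CPM stood far above the other WT day 3 libraries at 3921 to 6473 CPM, the WT value was 0.73 with an edgeR adjusted p of 0.0265.

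Car4 (ENSMUSG00000000805; chromosome 11, 84957786 to 84966044, plus strand) encodes carbonic anhydrase 4, which is anchored on the outer face of the apical membrane. In WT it had 487.2, 679.9, 339.6 and 557 CPM on day 0, 106 to 305 CPM (median 207) on day 3 and 207 to 434 CPM (median 324) on day 7. The WT day 3 libraries lay below all WT day 0 libraries. KO libraries had 396, 183, 310.4, 380.0 and 675 CPM on day 0, 110.2 to 476 CPM (median 333) on day 3 and 134 to 449 CPM (median 247) on day 7, and the days overlapped.

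Car4 fell in WT by 1.32 on day 3 against day 0 (SE 0.27, edgeR adjusted p 0.00143) and by 0.80 on day 7 (SE 0.24, edgeR adjusted p 0.0108). The KO values were -0.31 on day 3 (SE 0.31, edgeR adjusted p 0.441) and -0.49 on day 7 (SE 0.31, edgeR adjusted p 0.199). Both KO values were called with library sizes from epithelial genes (edgeR adjusted p 0.0239 and 0.0197). Between days 3 and 7 it had 0.52 in WT (SE 0.25, edgeR adjusted p 0.162) and -0.19 in KO (SE 0.28, edgeR adjusted p 0.711). Car1 and Car4 encode enzymes with the same reaction, and in WT their values against day 0 had opposite signs on both days.

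Best2 (ENSMUSG00000052819; chromosome 8, 85007202 to 85014408, minus strand) encodes bestrophin 2, an anion channel that passes bicarbonate and is known from colonic goblet cells. In WT it had 26.7, 27.3, 25.2 and 17.9 CPM on day 0, 5.37 to 56.4 CPM (median 23.6) on day 3 and 7.25 to 21.6 CPM (median 11.1) on day 7. In KO it had 20.8, 1.88, 13.8, 13.4 and 9.92 CPM on day 0, 12.9 to 40.9 CPM (median 21.3) on day 3 and 2.89 to 7.93 CPM (median 7.26) on day 7. Every KO day 7 library lay below every KO day 3 library.

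From day 3 to day 7 Best2 fell by 1.96 in KO (SE 0.26, edgeR adjusted p 0.00011), from 23.3 ± 9.40 (SD, n = 8) to 6.16 ± 1.83 CPM (SD, n = 7), and the WT value fell by 1.13 (SE 0.37, edgeR adjusted p 0.0421). The WT call remained without d3_WT_346, d3_WT_381 or d7_WT_393 and was lost without any one of d3_WT_348, d3_WT_352, d3_WT_353, d3_WT_486, d3_WT_487, d7_WT_356, d7_WT_361, d7_WT_370, d7_WT_386, d7_WT_419 or d7_WT_431 (-1.33 to -0.83, edgeR adjusted p 0.00435 to 0.105). Against day 0, Best2 had 0.11 in WT on day 3 (SE 0.41, edgeR adjusted p 0.846) and fell by 1.02 on day 7 (SE 0.25, edgeR adjusted p 0.00329). In KO it had 0.94 on day 3 (SE 0.38, edgeR adjusted p 0.0542), and 1.23 with an edgeR adjusted p of 0.0256 without d0_KO_24. The KO day 3 value was called in 3 of 8 other settings (no filter, mitochondrial-genome and immunoglobulin genes removed, and all 38 libraries in one fit). On day 7 Best2 in KO fell by 0.99 (SE 0.39, edgeR adjusted p 0.0437). That call was lost without any one of d0_KO_24, d0_KO_53, d0_KO_54 or d0_KO_60 (-1.25 to -0.65, edgeR adjusted p 0.0013 to 0.192) or without a filter.

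Several marker lists moved between day 3 and day 7 together with these genes, and their part in the results was not tested. Of all genes, 19.3% were called in each genotype (10.6% higher and 8.7% lower in WT, 10.5% and 8.83% in KO). Hoxb13 and Hoxd13, homeobox genes of the distal colon, both fell in both genotypes. Hoxb13 in WT fell by 1.81 (SE 0.43, edgeR adjusted p 0.00794), and in KO it fell by 2.54 (SE 0.44, edgeR adjusted p 0.000679). Their summed level went from 91.5 to 370 CPM on day 3 to 12.2 to 120.3 CPM on day 7 in WT, and from 73.4 to 307 CPM to 3.89 to 58.9 CPM in KO. Of 7 goblet cell genes, 1 fell in WT and 4 fell in KO, and their sums had medians of 11615 and 8389 CPM in WT and 14883 and 7704 CPM in KO on days 3 and 7. Of 6 genes of mature colonocytes other than the 10, 3 were called higher in WT and 2 in KO, and 0 lower. Values were positive for 4 and negative for 2 in each genotype. In WT, Krt20 was at 651 ± 370 CPM on day 3 (370 to 1439 CPM) and 1102 ± 146 CPM on day 7 (SD, n = 7). In KO the mean went from 922 to 767 CPM for Guca2a and from 1119 to 804 CPM for Muc3. All 7 inflammation genes and all 5 neutrophil genes rose in both genotypes, and 6 of 7 immune genes in WT and 7 of 7 in KO. Neutrophil genes summed to 0.0178 to 29.4 CPM on day 3 and 29.7 to 1383 CPM on day 7. Epithelial genes moved little, with 0 of 7 called in WT and 1 of 7 lower in KO. The sums of fibroblast, muscle and endothelial genes stayed at or below 209.6 CPM in all libraries.

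**Figure D3:**
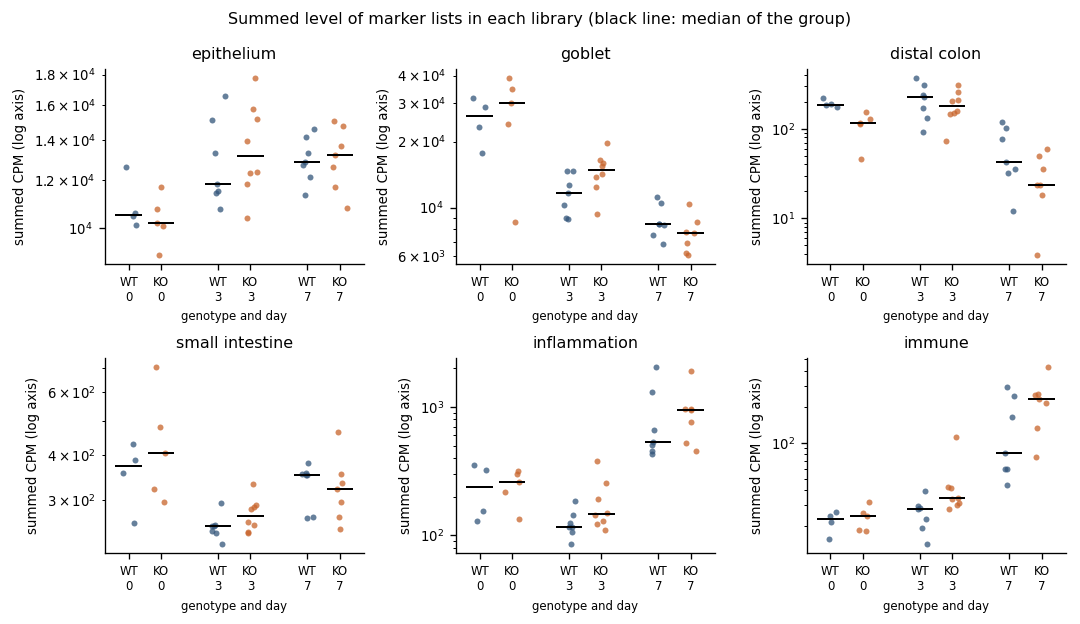
Summed TMM-scaled CPM of 6 marker lists in each library (points, logarithmic axes), by genotype and day, with group medians as black lines. By group median the distal colon sum is lowest on day 7, and the inflammation and immune sums are highest on day 7. The epithelial sum is similar on days 3 and 7. Of the 2 distal colon genes, Hoxd13 alone had its lowest mean on day 0. That mean was 1.48 CPM in WT and 0.398 CPM in KO, against 6.74 and 2.49 CPM on day 7.

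The genotype comparison asked whether these genes differed between KO and WT epithelium. Hk2 itself had -2.20 on day 0 (SE 0.30, edgeR adjusted p 0.0331), -0.27 on day 3 (SE 0.33, edgeR adjusted p 0.802) and -1.25 on day 7 (SE 0.30, edgeR adjusted p 0.291), so it passed on day 0 alone. The day 3 value includes d3_KO_345, which had 435 CPM of Hk2 against 68.4 to 128 CPM in the other KO libraries. The Hk2 value without that library is not given here. None of the 10 passed on any day with edgeR, where 0.0335% of 14944 genes passed on day 0, 0.00647% of 15461 on day 3 and 0.00642% of 15584 on day 7. On day 3 none of them passed without d3_KO_345 either. At an unadjusted p under 0.05, edgeR gave 3 of the 10 on day 0 (Car1, Scnn1g and Best2; 10.5% of all genes), 0 on day 3 (7.88%) and 4 on day 7 (Slc26a3, Scnn1b, Scnn1g and Best2; 12.9%). The DESeq2 Wald test called 1 of them higher in KO on day 0 (Car1), none on day 3 and 1 lower on day 7 (Best2), where it called 1.18%, 0.0129% and 0.533% of all genes. The median log2 fold change of the 10 was -0.25 on day 0, 0.11 on day 3 and -0.37 on day 7, against medians of all genes of -0.0030, -0.0045 and -0.0048.

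Before DSS, Car1 was 2210 ± 421.2 CPM in WT (SD, n = 4) and 3749.8 ± 520.1 CPM in KO (SD, n = 5). All 5 KO libraries lay above all 4 WT libraries, the 1 case among the 10 genes and 3 days in which genotypes did not overlap (of all genes tested, 3.39% did not overlap on day 0, 0.0323% on day 3 and 0.282% on day 7). The log2 fold change was 0.75 (SE 0.18), with an edgeR adjusted p of 0.228 (0.0912 to 0.648 over 9 fits without 1 library) and a DESeq2 adjusted p of 0.000256. Small intestine genes summed to 295 to 706 CPM in KO and 259 to 429 CPM in WT on day 0, and Hoxb13 was 45.4 to 151 CPM in KO and 176 to 215 CPM in WT, and their part in the Car1 value was not tested. Nor could age or sex be compared between the genotypes on day 0, since the labels assign neither. During DSS the genotypes were close, with 0.09 on day 3 (SE 0.25, edgeR adjusted p 0.922) and -0.08 on day 7 (SE 0.23, edgeR adjusted p 0.9).

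Best2 was lower in the KO group mean on day 0, at 12.0 ± 6.89 against 24.3 ± 4.30 CPM, and on day 7, at 6.16 ± 1.83 against 12.2 ± 4.75 CPM (SD, groups of 4 to 7). The KO day 0 mean includes d0_KO_32 at 1.88 CPM (16 counts), where mitochondrial ribosomal RNA took 45.6% of counts. The log2 fold changes were -0.99 on day 0 (SE 0.39, edgeR adjusted p 0.423) and -0.98 on day 7 (SE 0.25, edgeR adjusted p 0.291; 0.0712 to 0.559 without 1 library; DESeq2 adjusted p 0.0323), and the ranges overlapped. On day 3 the value was -0.17 (SE 0.36, edgeR adjusted p 0.889). Goblet cell genes, of which 0 of 7 passed between genotypes on any day with edgeR or DESeq2 (0, 2 and 2 at an unadjusted edgeR p under 0.05 on days 0, 3 and 7), had median sums of 8389 CPM in WT and 7704 CPM in KO on day 7. On day 0 their sums ran from 17689 to 31492 CPM in WT and from 8564 to 39107 CPM in KO. Their part in the Best2 values was not tested.

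The sodium channel subunits beta and gamma had negative values on day 7. So did both distal colon genes, with Hoxb13 at 53.6 ± 35.1 CPM in WT and 28.1 ± 17.8 CPM in KO (SD, n = 7) at a log2 difference of -0.94 (SE 0.53, edgeR adjusted p 0.441); Hoxd13 had -1.44 (SE 0.57, edgeR adjusted p 0.34). Their part in the values of Scnn1b, Scnn1g and Best2 was not tested. Scnn1b was 13.4 ± 6.44 CPM in WT and 7.80 ± 2.43 CPM in KO (SD, n = 7), with -0.78 (SE 0.28, edgeR adjusted p 0.32). Scnn1g was 3.36 ± 2.47 CPM in WT and 1.47 ± 0.568 CPM in KO (SD, n = 7), with -1.19 (SE 0.46, edgeR adjusted p 0.339), and on day 0 it had -1.78 (SE 0.67, edgeR adjusted p 0.401). Scnn1a had -0.19, 0.19 and 0.03 on days 0, 3 and 7 (SE 0.20, 0.12 and 0.13). The groups overlapped in each of these comparisons.

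Slc26a3 had -0.31, 0.08 and -0.41 on days 0, 3 and 7 (SE 0.20, 0.17 and 0.16; smallest edgeR adjusted p 0.338). Slc9a3 had -0.05, 0.49 and -0.34 (SE 0.22, 0.26 and 0.27). Aqp8 had -0.07, 0.45 and -0.83 (SE 0.38, 0.33 and 0.40; smallest edgeR adjusted p 0.391; the day 7 value ran from -1.07 to -0.45 without 1 library, and was -0.45 without d7_WT_431), and Aqp4 had -0.31, 0.12 and -0.14 (SE 0.23, 0.19 and 0.27). Car4 had -0.42, 0.59 and -0.10 (SE 0.31, 0.28 and 0.25). The missed threshold does not show that the genotypes were alike, since several of these values exceed their SE.

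**Figure D4:**
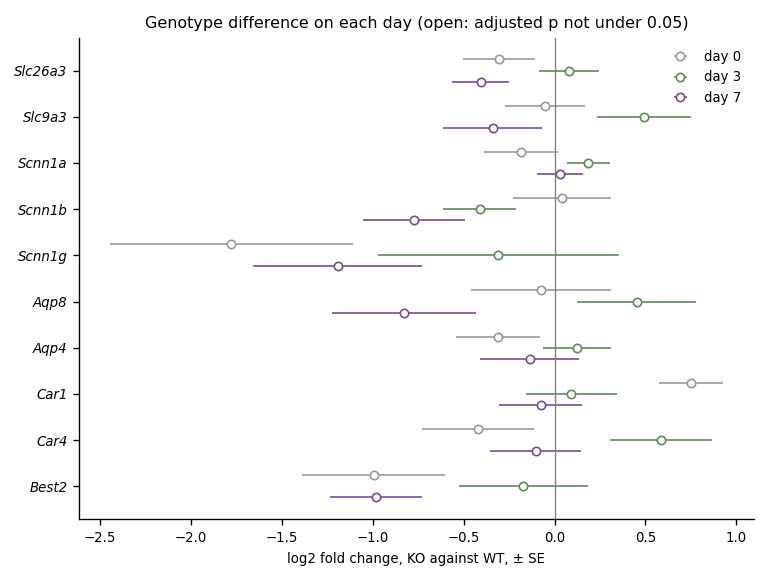
Log2 fold change of KO against WT with its SE for each of the 10 genes on day 0 (grey), day 3 (green) and day 7 (purple); all points are open because none passed an edgeR adjusted p under 0.05. Car1 on day 0 lies at 0.75, and Best2, Scnn1b, Scnn1g and Aqp8 lie between -1.19 and -0.78 on day 7.

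Whether the change between days differed between genotypes was tested as an interaction over all 38 libraries. From day 3 to day 7 none of the 10 passed, and 0% of 19144 genes did. The values for Aqp8, -1.27 (SE 0.53), Slc9a3, -0.84 (SE 0.38), and Slc26a3, -0.48 (SE 0.24), were the farthest from 0 relative to their errors, with an edgeR adjusted p of 1 each. So the call of Aqp8 in KO alone and of Slc9a3 in WT alone was not shown to be a difference between genotypes. From day 0 to day 3 none of the 10 passed (0.0104% of genes), with Car4 at 0.99 (SE 0.45, edgeR adjusted p 0.392) and Car1 at -0.67 (SE 0.36, edgeR adjusted p 0.477). From day 0 to day 7 none passed (0.0209% of genes), with Car1 at -0.83 (SE 0.37, edgeR adjusted p 0.297) and Scnn1b at -0.83 (SE 0.42, edgeR adjusted p 0.361). At an unadjusted p under 0.05, edgeR gave 2, 1 and 1 of the 10 in these 3 interactions (Slc9a3 and Aqp8, then Car4, then Car1), against 3.47%, 11.6% and 14.2% of all genes, and the DESeq2 Wald test called none of the 10 in any of them (0%, 0.115% and 0.392% of all genes).

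Other transport genes were read from lists of the same pathway, in day 7 against day 3. The counts of these lists stand beside 19.3% of all genes called in each genotype. In WT 10.6% of all genes were higher and 8.7% lower, and in KO 10.5% and 8.83%. Of 9 sodium absorption genes tested of 10, 2 fell in WT and 2 in KO, and none rose. Slc9a3r2, a scaffold that binds NHE3, fell by 0.56 in WT (SE 0.14) and by 0.38 in KO (SE 0.12). Atp12a, the colonic proton and potassium pump, fell by 1.92 in WT (SE 0.46, edgeR adjusted p 0.0092), from 124 ± 70.0 to 33.3 ± 23.6 CPM (SD, n = 7), and in KO it had -1.41 (SE 0.83, edgeR adjusted p 0.278). Fxyd4, a regulator of the sodium pump that corticosteroids induce, fell by 3.09 in KO (SE 0.58, edgeR adjusted p 0.00132) and had -0.97 in WT (SE 0.69, edgeR adjusted p 0.364).

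Of 10 genes that control the sodium channel, 2 rose and 1 fell in each genotype. Nr3c2, the mineralocorticoid receptor through which aldosterone acts, in WT fell by 0.49 (SE 0.11, edgeR adjusted p 0.0044), and in KO it fell by 0.38 (SE 0.06, edgeR adjusted p 0.000196). Its group means were 240.5, 134 and 96.6 CPM on days 0, 3 and 7 in WT and 237, 136 and 107 CPM in KO. St14, a protease that cleaves the channel, rose by 0.35 and 0.34. Sgk1, a kinase that aldosterone induces, in WT rose by 0.78 (SE 0.23, edgeR adjusted p 0.0255), and Nr3c1, the glucocorticoid receptor, rose by 0.38 in KO (SE 0.06). Hsd11b2, which protects the mineralocorticoid receptor from glucocorticoids, was higher than on day 0 on both days in both genotypes, by 0.73 to 1.35.

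Among 10 chloride and bicarbonate genes, 2 rose and 2 fell in WT, and 1 rose and 2 fell in KO. Clca4b, of the chloride channel accessory family, in WT rose by 6.01 (SE 0.60, edgeR adjusted p 3.92e-05), and in KO it rose by 4.44 (SE 0.71, edgeR adjusted p 0.000381). It had 2.58 to 22.4 CPM in WT on day 3 and 309 to 2000.1 CPM on day 7, without overlap, though reads can be split between it and its close copy Clca4a. Ano1, a chloride channel opened by calcium, in WT fell by 1.85 (SE 0.26, edgeR adjusted p 0.000189), and in KO it fell by 2.04 (SE 0.21, edgeR adjusted p 1.73e-05), from 142 ± 59.4 to 39.8 ± 12.4 CPM in WT (SD, n = 7). Slc26a2, a sulfate transporter of the family of Slc26a3, fell by 0.63 and 0.42.

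Of 5 potassium channel genes, Kcnn4 fell by 0.46 in WT and by 0.48 in KO, and Kcnma1 fell by 0.39 in KO. Of 8 other carbonic anhydrase genes tested of 9, 2 rose and 1 fell in WT, and 1 rose and 2 fell in KO. Car2, the other abundant cytosolic enzyme, in WT fell by 0.48 (SE 0.16, edgeR adjusted p 0.0457), and in KO it fell by 0.44 (SE 0.12, edgeR adjusted p 0.0162), while the membrane enzyme Car12 rose by 0.46 and 0.47. Car9, induced by low oxygen, rose by 0.43 in WT, and Car7, at under 1 CPM, fell by 1.30 in KO. Other aquaporins were scarce, with 2 of 6 tested in WT and 3 in KO. Only Aqp9 rose among them in these fits, by 2.54 in KO (SE 0.59, edgeR adjusted p 0.0057), and this channel is also known from neutrophils.

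Short-chain fatty acids are the main fuel of colonocytes, and their uptake is tied to sodium and water absorption. Slc5a8, the sodium-coupled carrier, in WT fell by 0.75 (SE 0.15, edgeR adjusted p 0.00261), and in KO it fell by 0.53 (SE 0.11, edgeR adjusted p 0.00223). Slc16a3, a carrier that exports lactate, in WT rose by 2.80 (SE 0.34, edgeR adjusted p 8.16e-05), and in KO it rose by 2.35 (SE 0.35, edgeR adjusted p 0.000227), from 2.81 ± 1.23 to 19.5 ± 10.9 CPM in WT (SD, n = 7). Slc16a1, the main carrier of butyrate, fell by 0.45 in KO.

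Against day 0, sodium absorption genes had 4 higher and 3 lower of 9 on day 3 in each genotype, and 3 higher and 2 lower on day 7 in each, where 46% to 56.9% of all genes passed against day 0. Slc9a2, an apical exchanger like Slc9a3, was lower by 0.42 to 0.90 in the 4 comparisons. Kcnma1, a potassium channel of the apical membrane, had -1.77 to -1.33. Car14 had -1.70 to -1.19 and Car12 higher by 0.56 to 1.26. Klf5 led the transcription factors, higher by 0.76 to 1.07. Between genotypes, none of the genes in the 8 lists passed with edgeR on any day. At an unadjusted p under 0.05 there were 14 of 55 on day 0, 0 of 57 on day 3 and 7 of 58 on day 7, against 10.5%, 7.88% and 12.9% of all genes. DESeq2 called 8 of them on day 0, among them Aqp1, Aqp11, Hsd11b2 and Ano1, and 0 on days 3 and 7 (1.18%, 0.0129% and 0.533% of all genes). Car8, a member of the family without enzyme activity, differed between genotypes in its change from day 0 to day 3, by -1.43 (SE 0.26, edgeR adjusted p 0.0369), with 32.4 ± 9.31 CPM in WT (SD, n = 4) and 72.5 ± 16.7 CPM in KO (SD, n = 5) on day 0 and 84.1 ± 19.4 and 70.1 ± 18.2 CPM on day 3. That interaction was among 2 genes called, and no gene was called with d3_KO_345 left out.

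The genes whose pattern over the 29 DSS libraries was most like each of the 10 were found by the root mean square difference of log2 CPM, each gene centred on its own mean, among 10546 genes. This is a description of libraries that share depth, inflammation and day. Scnn1a had the smallest difference, with Abat at 0.216, followed by Ckmt1 at 0.232. Slc26a3 was nearest to Ccbl1 at 0.255 and Chp2 at 0.273, and among the 10 its nearest was Scnn1a at 0.336. Car1 was nearest to Abhd6 at 0.281 and Mogat2 at 0.287, and Car4 to Lhfpl2 at 0.317 and Myzap at 0.339. Scnn1b lay nearest to Gm37305 at 0.344 and 2310015A10Rik at 0.364, and Aqp4 to Cep128 and Sh2d4a, both at 0.372. Best2 was nearest to Rasd2 at 0.434 and Slc6a4 at 0.438, and Slc9a3 to Ceacam1 at 0.454 and Ptprh at 0.460. Aqp8, with Crip1 at 0.592 and Pmp22 at 0.604, and Scnn1g, with Egln3 at 0.993 and Hmox1 at 1.01, had no gene at so small a difference. The measure is not scaled to a gene's own spread. The root mean square of the centred values was 0.950 for Aqp8, 1.41 for Scnn1g and 1.01 for Best2. It was 0.467 for Scnn1a and 0.473 for Aqp4, so the order above reflects spread as well as likeness. Each of the 10 had 2 genes outside the 10 that lay closer than any other member considered. Scnn1g fell short of the mean log2 CPM of 2 set for candidates, so the other members were not compared with it. The outside genes were picked from far more candidates than the members were. This therefore does not show whether the 10 varied together.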

How the data were processed

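The files hold raw counts per gene, deposited by the authors as whole numbers without normalization. Per the file headers, these counts were made with featureCounts 1.6.2 on paired-end alignments with strand ignored; per the submitters' processing notes, reads were handled with Trim Galore, STAR and featureCounts 1.5.2 on GRCm38. Per the labels, libraries came from a stranded mRNA kit and were read as pairs of 50 bases with 23 M reads on average. Antisense reads are thus not separated. Introns of Slc26a3 and Car1 hold the small genes Gm9359 and Gm16399, and no exon of the 10 genes overlaps another gene.

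The 2 lanes of each library were summed (correlation of log counts at least 0.989). Total counts were 10.5 to 60.6 M, and 3 counts, taken as the floor, equal 0.0495 to 0.286 CPM; the floor covers counting error only. Levels are CPM scaled by TMM over all 38 libraries, and per kilobase where genes are compared. Comparisons were fitted in R 4.3.3 with edgeR 4.0.16 (quasi-likelihood), with TMM, its filter on expression by group and Benjamini-Hochberg adjustment over all genes tested, called under 0.05, on the compared groups alone. Interactions used a group means model of all libraries. The SE is the log2 fold change over the root of its F statistic. The procedure was also run on simulated counts, whose outcome is not given here. The simulated libraries held no outlier, no wrong label and no difference in series, so that run does not bear on these limits.

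The 10 genes, the transport lists and the marker lists were chosen with earlier results of these data known. The text names the 10 genes in every comparison, and of each transport list up to 3 called genes with the largest change per comparison; Clca4a, Aqp1 and Aqp11 are named beside a count. Likeness took genes with a mean log2 CPM of at least 2 (prior count 2). Alternatives were DESeq2 1.42.0 size factors, the DESeq2 Wald test, no filter, a mean CPM of at least 1, library sizes from the 7 epithelial genes, lane 1 alone, removal of mitochondrial-genome and immunoglobulin genes, other sets of libraries in the fit, and leaving out replicates in turn. In comparisons of DSS days with day 0, only day 0 libraries were left out in turn, and d3_KO_345 in KO on day 3. Interactions that involve day 3 were refitted without d3_KO_345 alone. Promoter sequence is from RefSeq. Prac1, listed as a distal colon marker, was not analysed here. Some genes of these lists are not reported here by name.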

Additional observations from a re-analysis of the deposited data

Results flagged for a closer look

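For each of the 10 genes, the highest and lowest library of each group was compared with its neighbours by Dixon's ratio, over 60 gene and group combinations, and 5 stood apart at the 95% level, where chance gives about 1 in 20. Slc9a3 in d7_KO_420 had 245.5 CPM, against 69.4 to 131.5 CPM in the rest of its group. Aqp8 in d3_WT_381 had 346.1 CPM, where the others of WT day 3 had 98.0 to 195.6 CPM, and Car1 in the same library had 10113.7 CPM against 3921 to 6473 CPM. Scnn1g in d0_WT_41 had 2.691 CPM against 0.788 to 1.01 CPM in the other WT day 0 libraries. Scnn1g in d0_KO_24 had 1.082 CPM against 0 to 0.312 CPM in the other KO day 0 libraries.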

How the results depend on the processing

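No paired analysis was possible because the library numbers in the labels are unique and no number recurs across groups. Each comparison was rerun in 8 settings other than leaving out a library. Counts of the 10 genes called kept within 1.5 times of the reported counts in 185 of 192 combinations of comparison, direction and setting. Single values kept sign and side of the threshold in 922 of 957 combinations of gene, comparison and setting. A count of 0 that stayed 0 was taken as kept. The reported count was 0 in every genotype comparison and every interaction, so much of this is no call remaining no call. The DESeq2 Wald test gave 177, 2 and 83 genes between genotypes on days 0, 3 and 7, and 22 and 75 genes for the interactions of days 3 and 7 with day 0, with 1 of the 10 higher on day 0 and 1 lower on day 7. DESeq2 size factors gave 0 and 2 genes for those interactions. Without a filter the genotype counts were 52 on day 0 and 2 on day 7, the interactions 0 and 0, and 2 of the 10 fell in KO from day 0 to day 7, where 6782 of 29216 genes fell. With a mean CPM of at least 1, no gene passed between genotypes on days 3 and 7 (0 each), 1 of the 10 rose in KO from day 0 to day 3 (3025 of 13057 genes rose), and Scnn1a in WT had -0.010. Lane 1 gave 0 and 1 genes for the interactions and -0.090 for Best2 in the interaction of day 7 with day 0. Removal of mitochondrial and immunoglobulin genes gave 0 and 2, the 4 groups of the days alone 0 and 1, and all 38 libraries in one fit 38 genes between genotypes on day 7. The cause of these moves was not tested.

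Library sizes from epithelial genes moved the median of all genes to -0.17 (WT) and -0.39 (KO) on day 3 against day 0, to -0.20 and -0.32 on day 7, and to -0.16 in the interaction of day 3. Of the 10, 0 rose and 5 fell in KO on day 3, where 778 of 16441 genes rose and 7269 fell. On day 7 in KO 7 of the 10 fell, where 6955 of 16603 genes fell. Scnn1a (-0.14), Scnn1b (-0.0013) and Best2 (-0.053) changed sign on day 3 in WT. Car1 in KO on day 3 then had 0.25 and Scnn1a 0.044, neither called. Genotype values changed sign for Slc9a3 (0.035) and Aqp8 (0.0047) on day 0 and Slc26a3 (-0.018) and Aqp4 (-0.0055) on day 3, and Best2 had -0.10 in the interaction of day 7 with day 0. Genes called were 3 between genotypes on day 0 and 1 and 0 for the interactions. The share of calls that were higher went from 44.3 to 22.1% and from 48.8 to 9.67% on day 3 in WT and KO, from 48.8 to 32.6% and from 50.0 to 22.4% on day 7, and from 54.3 to 72.7% for day 7 against day 3 in KO.

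Leaving out 1 library at a time gave 0 to 37, 0 to 1 and 1 to 2 genes between genotypes on days 0, 3 and 7. Of the 10 genes it gave 1 to 2 higher and 1 to 3 lower in WT for day 7 against day 3 and, against day 0, 0 to 2 higher and 2 to 4 lower in KO on day 3, 1 to 2 higher in WT and 2 to 4 lower in KO on day 7. Against day 0 only day 0 libraries were left out, and d3_KO_345 in KO on day 3. The ranges against day 0 thus do not cover the other DSS libraries. The interaction of day 3 with day 0 gave 0 genes without d3_KO_345. Signs were not fixed between genotypes for Slc9a3 (-0.22 to 0.15), Aqp8 (-0.55 to 0.13) and Scnn1b (-0.090 to 0.25) on day 0. The same held for Slc26a3 (-0.028 to 0.16), Scnn1g (-0.56 to 0.63), Car1 (-0.026 to 0.295) and Best2 (-0.35 to 0.13) on day 3, and for Scnn1a (-0.050 to 0.085), Car1 (-0.21 to 0.021) and Car4 (-0.26 to 0.015) on day 7. Between days they were not fixed for Aqp4 (-0.12 to 0.16) and Scnn1b (-0.12 to 0.13) in KO, day 7 against day 3, nor for Scnn1g (-0.43 to 0.38), Scnn1a (-0.022 to 0.15) and Best2 (-0.021 to 0.19) in WT, day 3 against day 0. Depth limits Scnn1g, with 0 to 17 counts per library in KO on day 0.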
